A study of Sus scrofa with 4 samples.

Results

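Transcripts of the zona pellucida, and of proteins that meet the sperm at the egg surface, were followed in RNA-seq counts from porcine oocytes at the M II stage. The genes were ZP2, ZP3 and ZP4, which encode the coat, CD9, which encodes a membrane protein of the egg, and ASTL, which encodes ovastacin, a protease of the cortical granules. Of these 5 genes, 4 were among the 4381 gene symbols of the counts table, and 3 had enough counts to enter the 2387 genes tested. ASTL was not analysed here.

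The zona pellucida is the glycoprotein coat that the growing oocyte secretes around itself, and in the pig it is built from ZP2, ZP3 and ZP4. Sperm bind to this coat before they reach the plasma membrane, where tetraspanins such as CD9 are needed for fusion in the mouse. After fertilization the cortical granules empty, ovastacin cleaves ZP2, and the altered coat no longer binds sperm. The coat is laid down while the oocyte grows, before the meiotic maturation that was sampled here.

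The 4 libraries came from control oocytes (2 libraries) and SIRT6-inhibited oocytes (2 libraries), which were cultured as cumulus-oocyte complexes from abattoir ovaries for 42 to 44 h. SIRT6-inhibited oocytes were matured with 100 μM SIRT6-IN-1, which blocks the enzyme and not its transcript, and the inhibitor reached the cumulus cells of each complex as well. It was dissolved in DMSO, at no more than 0.1% of the medium, and the sources used here do not say whether control medium held DMSO. Each group was a pool of 100 oocytes, with no statement of how the oocytes or cultures were divided between libraries, so the p-values measure only the spread between these libraries, which may be technical. Counts on the listed genes totalled 4646129 and 3405960 in control libraries 1 and 2 against 3239200 and 4972602 in SIRT6-inhibited libraries 1 and 2. All levels below are normalized CPM, counts brought to a common library size with edgeR's TMM factors. They are not divided by transcript length, so a level is compared between libraries and never between genes.

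The counts carried the transcripts of an oocyte. All 11 oocyte markers that the table lists, of 20 on the list, had enough counts to be tested. Their summed level was 86193 and 84315 normalized CPM in control libraries and 89593 and 93492 in SIRT6-inhibited libraries, with the largest number of reads on WEE2, a kinase of the oocyte. Markers of cumulus and granulosa cells, 19 of 24 listed, summed to 186 and 213 normalized CPM in control libraries and to 101 and 196 in SIRT6-inhibited libraries. The largest number of reads fell on VCAN. Of these, 6 were at 0 counts in all libraries (FSHR, LHCGR, AMH, TNFAIP6, AREG and KRT8). Markers of theca, stroma and blood, 8 of 12 listed, summed to between 32.0 and 44.2 normalized CPM, with CYP17A1, COL3A1, VWF and HBB at 0 in all libraries.

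ZP2 encodes the zona protein that ovastacin cleaves. In the RefSeq annotation of Sscrofa11.1 it lies on chromosome 3 from 24863730 to 24877522. Its level was 3709.6 and 4329.6 normalized CPM in control libraries 1 and 2 against 3419.1 and 2785.5 in SIRT6-inhibited libraries 1 and 2. Both SIRT6-inhibited libraries were thus below both control libraries, and the groups did not overlap. The step from the lower control library to the higher SIRT6-inhibited library was smaller than the SD within either group, so these neighbours did not differ beyond the spread.

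As mean ± SD of 2 libraries, ZP2 stood at 4019.6 ± 438 normalized CPM in control oocytes against 3102.3 ± 448 with the inhibitor. The log2 fold change was -0.37 with a standard error of 0.14 (edgeR's quasi-likelihood test, Benjamini-Hochberg adjusted p = 0.510), or 0.772 times the control level. Its unadjusted p-value was under 0.05 and its unadjusted 95% interval ran from -0.70 to -0.04. No gene of the table passed adjustment in this test, so the difference in ZP2 was not detectable after correction. Without control library 2 the log2 fold change was -0.262, and without SIRT6-inhibited library 2 it was -0.235 (edgeR adjusted p = 0.950 and 0.769); in both cases the unadjusted p-value was above 0.05.

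ZP3 encodes the zona protein long studied as a sperm receptor of the mouse coat, and it lies on chromosome 3 from 9934760 to 9944924. Its level was 542 and 1275.2 normalized CPM in control libraries 1 and 2 against 645 and 241 in SIRT6-inhibited libraries 1 and 2. Control library 2 was the highest and SIRT6-inhibited library 2 the lowest, while control library 1 lay below SIRT6-inhibited library 1, so the groups overlapped. The highest library had 5.28 times the level of the lowest, against 1.55 times for ZP2 and 1.65 times for ZP4. The 95% Poisson interval of ZP3 was 1238 to 1313 normalized CPM in control library 2 and 228 to 256 in SIRT6-inhibited library 2. Such intervals cover counting error only, and the source of the spread between libraries was not tested.

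As mean ± SD of 2 libraries, ZP3 stood at 909 ± 518 normalized CPM in control oocytes against 443 ± 285 with the inhibitor. Its log2 fold change of -1.04 had a standard error of 0.53 and an interval from -2.30 to 0.22 (edgeR adjusted p = 0.615), which was not past the threshold with or without adjustment. By DESeq2 it was not past it either, while the unadjusted p-value of ZP3 was under 0.05 by limma-voom and with at least 10 counts asked of each library. With no filter on low counts ZP3 passed adjustment at the same -1.04 (edgeR adjusted p = 5.46e-07). Its standard error was 0.169 there, so the pass came from a smaller estimate of the spread and not from a larger difference. The size rested on single libraries. It was -0.30 without control library 2, -0.50 without SIRT6-inhibited library 2, -1.54 without control library 1 and -1.92 without SIRT6-inhibited library 1. Each of these fits left 1 library in a group, whose spread was not measured, so only sizes are given. Without SIRT6-inhibited library 1 the standard error of ZP3 was 0.251, against 0.53 with all libraries. The 2 control libraries kept in that fit differed 2.35-fold, so it is not read as a sharper result. Over the 4 possible pairs of an inhibited and a control library, ZP3 ranged from 0.189 to 1.19 times the control level.

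ZP4 encodes the zona protein that the pig keeps in its coat and the laboratory mouse lacks. It lies on chromosome 14 from 53577138 to 53584544. Its level was 1522.4 and 2518.9 normalized CPM in control libraries 1 and 2 against 2221.7 and 1745.6 in SIRT6-inhibited libraries 1 and 2. The SIRT6-inhibited libraries lay between the control libraries. Mean ± SD of 2 libraries was 2020.7 ± 705 and 1983.6 ± 337 normalized CPM, with a log2 fold change of -0.03 and an interval from -0.60 to 0.55 (edgeR adjusted p = 0.992). The interval leaves room for a difference of either sign, and the value was 0.377 without control library 2, 0.135 without SIRT6-inhibited library 2, -0.353 without control library 1 and -0.215 without SIRT6-inhibited library 1.

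**Figure D1:**
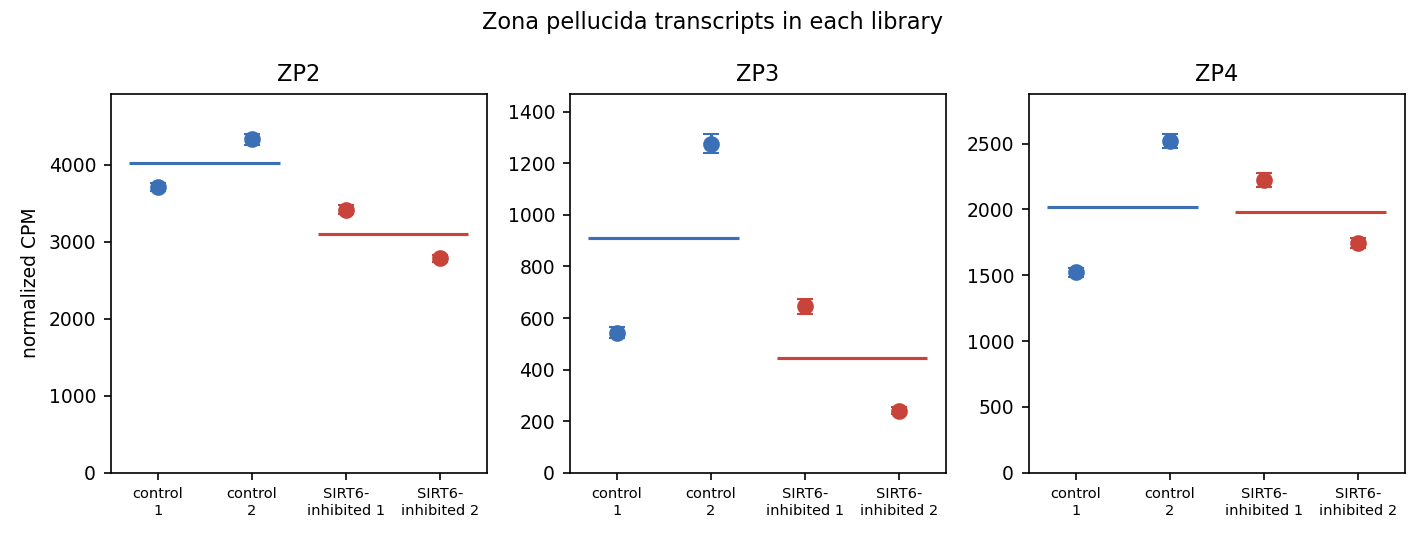
Normalized CPM of ZP2, ZP3 and ZP4 (vertical axes from 0, a separate scale for each gene) in the 2 control libraries (blue) and the 2 SIRT6-inhibited libraries (red). Points are libraries with 95% Poisson counting intervals and horizontal lines are group means; the groups separate for ZP2 and overlap for ZP3 and ZP4.

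These 3 genes are read against all genes tested. With edgeR's quasi-likelihood test 0 of 2387 genes (0%) had an adjusted p-value under 0.05, while DESeq2's Wald test gave 37 and limma-voom 0. An unadjusted p-value under 0.05 was found for 216 genes (9.05%). These were 143 genes lower (5.99%) and 73 genes higher (3.06%) in SIRT6-inhibited oocytes, and of the zona genes ZP2 was among the lower ones, 1 of 3. Of these 3 zona genes, 0 had an unadjusted value under 0.05 without control library 2, and 2 without control library 1, without SIRT6-inhibited library 1, with no filter on low counts, with at least 10 counts asked of each library, and by limma-voom. Both SIRT6-inhibited libraries were below both control libraries for 530 genes (22.2%), ZP2 included, and the groups failed to overlap in either direction for 958 (40.1%), so a gene with separated groups was common in these data. The adjusted count was 77 without SIRT6-inhibited library 1, 25 without SIRT6-inhibited library 2 and 1 without control library 2, where the unadjusted count was 111. The median log2 fold change of all tested genes was -0.04, and those of ZP2, ZP3 and ZP4 were all below 0 in this fit. Over all tested genes 52.8% were below 0. In bulk RNA of pooled oocytes, fewer oocytes that hold a transcript and less of it in each oocyte cannot be told apart.

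**Figure D2:**
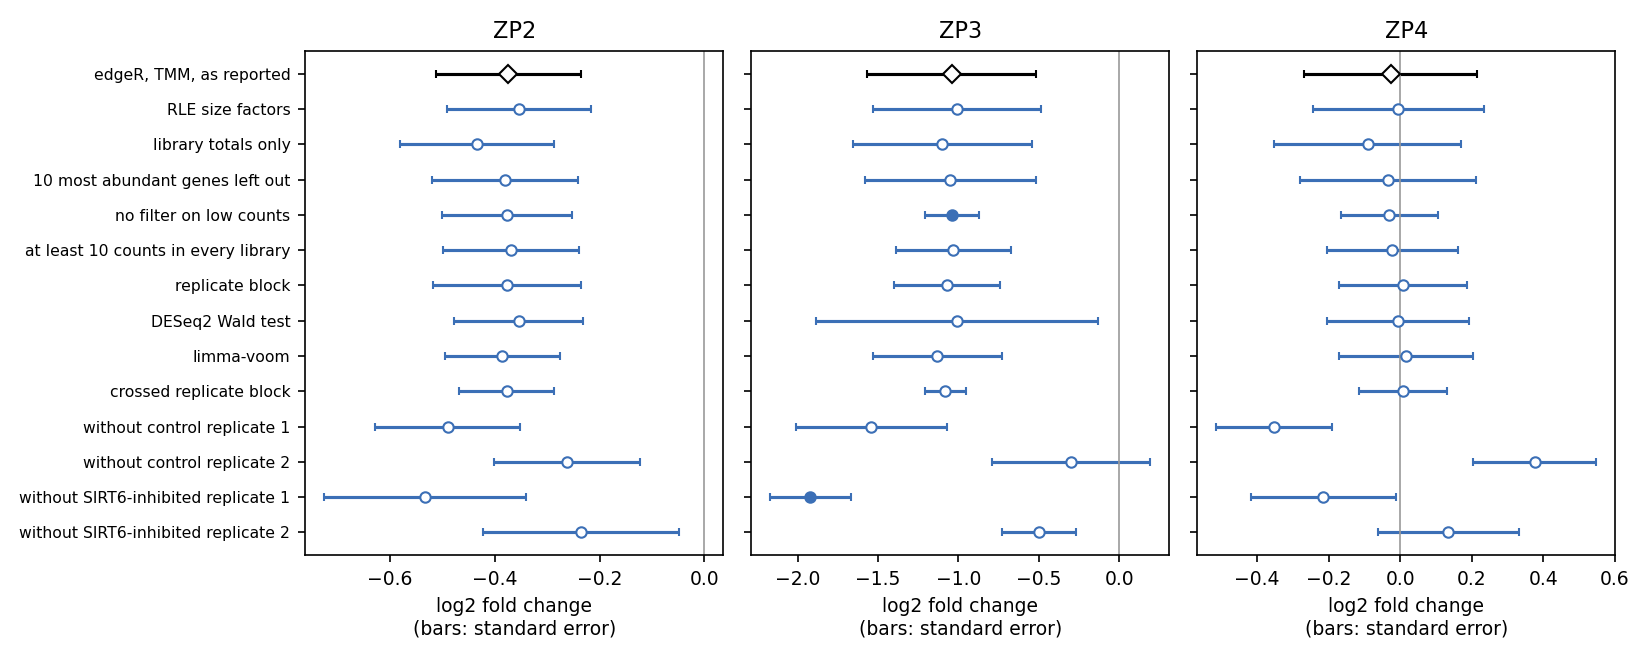
Log2 fold change of ZP2, ZP3 and ZP4 (SIRT6-inhibited against control; horizontal scales differ) in the reported fit (diamond) and in 13 alternatives (circles), with standard errors as bars and filled symbols where the adjusted p-value was under 0.05. ZP2 and ZP3 stay below 0 in each fit, and ZP4 lies on either side of 0. ZP3 is filled in 2 fits, both with a smaller standard error than the reported fit (0.169 and 0.251 against 0.526).

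Ratios of read counts between genes of the same library do not depend on library scaling, and transcript length cancels when a ratio is compared between libraries. The number of ZP3 reads per ZP2 read was 0.146 and 0.295 in control libraries 1 and 2 against 0.189 and 0.0867 in SIRT6-inhibited libraries 1 and 2. These ratios overlapped between groups, and their log2 difference of -0.70 ran from -1.26 to -0.138 with each library left out. ZP4 reads per ZP2 read were 0.410 and 0.582 in control libraries against 0.650 and 0.627 in SIRT6-inhibited libraries. Both SIRT6-inhibited libraries had the higher ratio, by 0.39 on the log2 scale or 1.31-fold (SD of the log2 ratio over 2 libraries 0.356 in control oocytes against 0.037 with the inhibitor). This difference was 0.133 without control library 1 and 0.637 without control library 2. ZP3 reads per ZP4 read were 0.356 and 0.506 in control and 0.290 and 0.138 in SIRT6-inhibited libraries, a log2 difference of -1.08, with both SIRT6-inhibited libraries the lower. It was -0.55 without SIRT6-inhibited library 2 and -1.62 without SIRT6-inhibited library 1. An exact two-sided permutation test of 2 libraries against 2 cannot go below p = 0.333, which is what it gave for the ZP4 to ZP2 and ZP3 to ZP4 ratios. It gave p = 0.667 for ZP3 to ZP2 in the same exact permutation test.

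Ratios to growth factors that the oocyte itself secretes were taken for ZP2 and ZP4 with BMP15 and for ZP3 with GDF9. ZP2 and ZP4 can thus be compared by them, while ZP3 cannot be compared with either. ZP2 reads per read of BMP15, an oocyte growth factor of the TGF-beta family, were 0.232 and 0.221 in control libraries and 0.192 and 0.146 in SIRT6-inhibited libraries. The control libraries differed little and both SIRT6-inhibited libraries were lower, by -0.43 on the log2 scale, or -0.235 without SIRT6-inhibited library 2. ZP4 reads per BMP15 read were 0.0950 and 0.129 in control and 0.125 and 0.0917 in SIRT6-inhibited libraries, and these overlapped. ZP3 reads per read of GDF9, the partner growth factor of BMP15, were 0.410 and 0.427 in control libraries and 0.659 and 0.614 in SIRT6-inhibited libraries. Within each group this ratio varied less than the level of ZP3 did, and it was 1.52-fold higher in SIRT6-inhibited oocytes, as GDF9 itself differed more between the groups than ZP3. The exact permutation test gave p = 0.333 for the ZP2 to BMP15 and ZP3 to GDF9 ratios, again the smallest p it allows, and 6 ratios were compared in all, so no ratio could pass a threshold of 0.05.

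**Figure D3:**
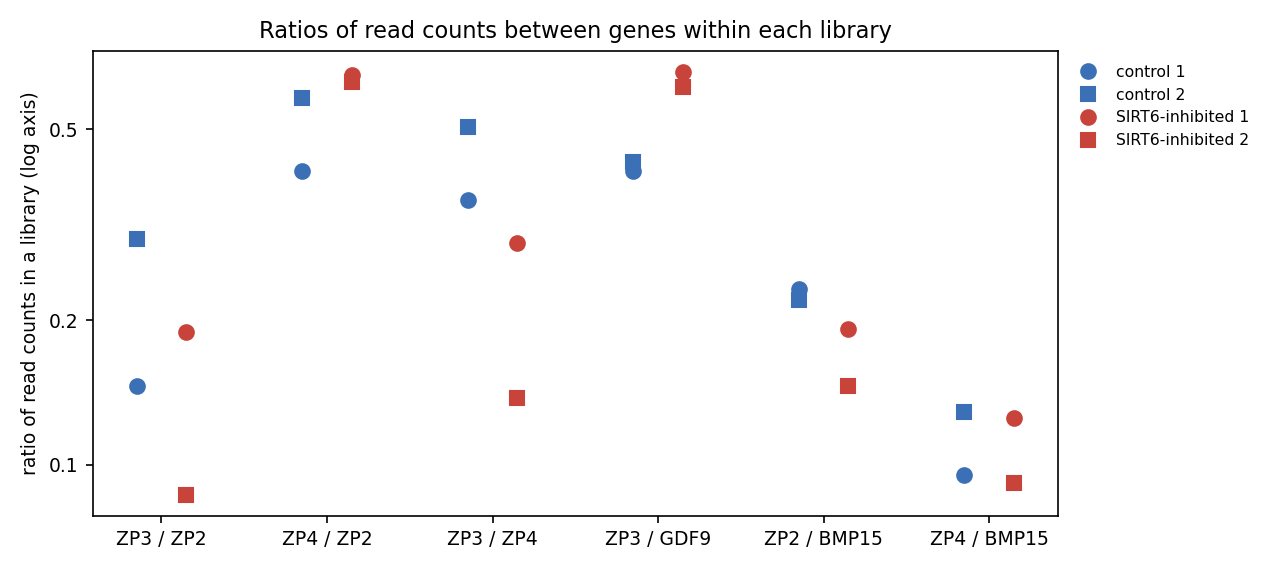
Ratios of read counts between pairs of genes within a library, on a log axis, for the control libraries (blue) and the SIRT6-inhibited libraries (red), with circles for library 1 and squares for library 2. The groups separate for ZP4 to ZP2, ZP3 to ZP4, ZP3 to GDF9 and ZP2 to BMP15 and overlap for ZP3 to ZP2 and ZP4 to BMP15. The ratios share genes, and the levels of 40.1% of all tested genes also separated between the groups.

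The genes whose levels ran most like ZP2 and ZP3 over the 4 libraries were taken by the root mean square difference of their log2 levels, each centred on its own mean, among 1435 other genes with a mean of at least 100 counts. This is a description over 4 libraries and was not tested. Closest to ZP2 were ALDH4A1, a mitochondrial enzyme of proline breakdown (0.0159 log2 units), TNFAIP8 (0.0443), the heat-shock gene HSP70.2 (0.0526), NDUFA6, a subunit of respiratory complex I (0.0548), and RPN1, a subunit of the enzyme that attaches N-glycans to secretory proteins (0.0555). The median over all 1435 genes was 0.347. For all 5 of these genes both SIRT6-inhibited libraries were below both control libraries, which follows from the likeness to ZP2.

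Closest to ZP3 were CDK5, a cyclin-dependent kinase (0.171 log2 units), TMEM50A (0.255), CTSB, the lysosomal protease cathepsin B (0.256), TMSB10, an actin-binding thymosin (0.278), and PRPF19, a splicing factor (0.279), against a median of 0.905. All were highest in control library 2 and lowest in SIRT6-inhibited library 2, as ZP3 was. GDF9 stood in place 11 with 0.306, while ZP2 and ZP4 stood in places 144 and 199 with 0.637 and 0.684. Seen from ZP2, ZP4 stood in place 334 with 0.263 and ZP3 in place 1296 with 0.637. The zona genes were thus not among the closest of each other by this measure. It does not rescale the genes, so it also counts how widely each varied: 5.28-fold for ZP3 against 1.55-fold for ZP2. ZP2 and ZP3 were both highest in control library 2 and lowest in SIRT6-inhibited library 2, so their places do not mean opposite courses.

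**Figure D4:**
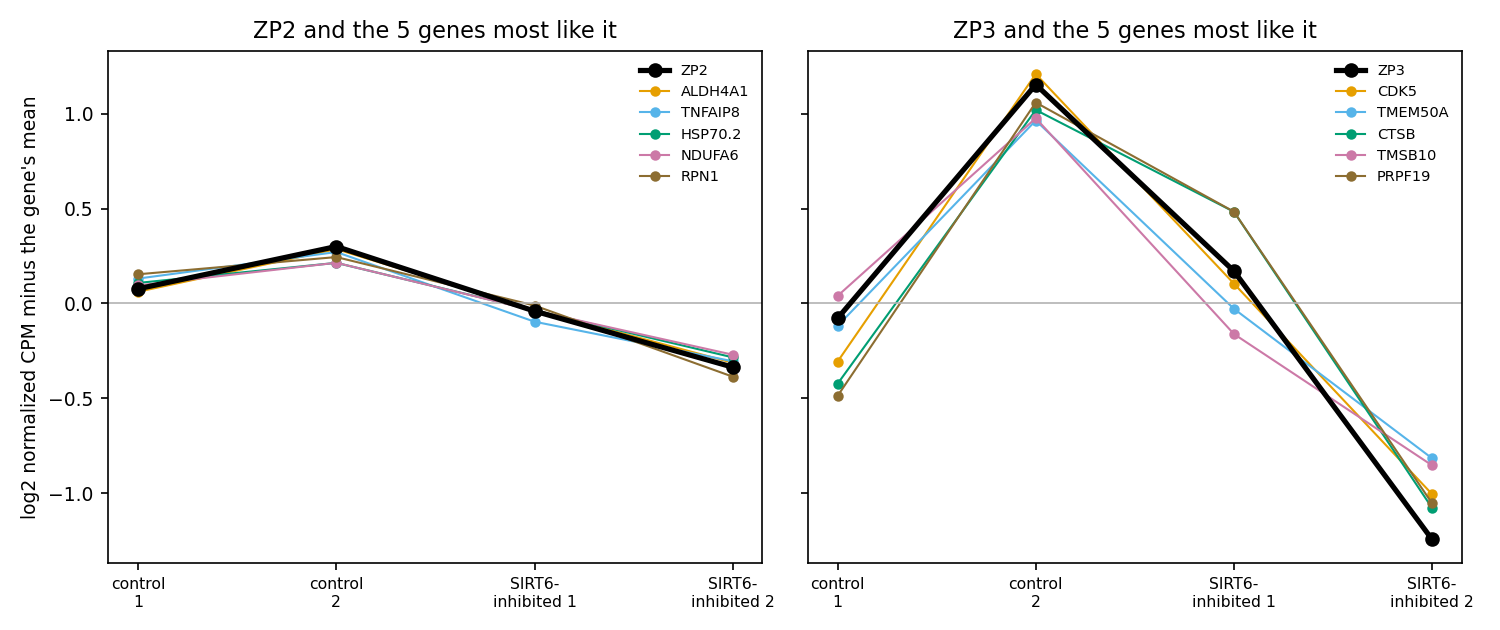
Log2 normalized CPM minus the gene's own mean over the 4 libraries, for ZP2 (left, black) and ZP3 (right, black) with the 5 genes closest to each in colour; lines only join the values of one gene and the libraries have no order. ZP2 and its closest genes vary over a narrow range, and ZP3 and its closest genes peak in control library 2 and are lowest in SIRT6-inhibited library 2.

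CD9, on chromosome 5 from 64420177 to 64459783, was hardly counted. It had 0 and 5 counts in control libraries 1 and 2 and 0 in both SIRT6-inhibited libraries. The upper 95% Poisson limit of a count of 0 was between 0.768 and 1.15 normalized CPM, and the 5 counts of control library 2 correspond to 1.41 normalized CPM (95% Poisson interval 0.457 to 3.28). CD9 therefore did not pass the filter on low counts, and no difference between the groups was detectable at this depth. Whether CD9 reads were lost in the upstream assignment of reads to genes was not tested, so its counts cannot be read as absence of the transcript. CD81, a tetraspanin that acts beside CD9 in fusion, was by contrast well counted. It had 531 and 525 normalized CPM in control libraries and 576 and 517 in SIRT6-inhibited libraries, and the groups overlapped. The log2 fold change of CD81 was 0.05 with an interval from -0.28 to 0.38 (edgeR adjusted p = 0.989).

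The wider list of egg surface genes for sperm binding and fusion held 12 names, of which the table lists 7 and 5 were tested. Of these 5, 3 were lower and 2 higher in SIRT6-inhibited oocytes with a median log2 fold change of -0.76, 0 passed adjustment and 1 had an unadjusted p-value under 0.05, as did 9.05% of all tested genes. Without control library 1 the median was -0.012, and without SIRT6-inhibited library 1 the count under 0.05 was 2. The gene under 0.05 was ITGB5, an integrin beta subunit, with 32.0 and 48.4 normalized CPM in control libraries and 9.63 and 6.66 in SIRT6-inhibited libraries. Both SIRT6-inhibited libraries lay well below both control libraries. Its log2 fold change was -2.30 (edgeR adjusted p = 0.477, with 0.72 as standard error), from 148 and 172 counts in control and 31 and 32 counts in SIRT6-inhibited libraries. Without control library 2 it was -1.97 and its unadjusted p-value was above 0.05 (edgeR adjusted p = 0.950). ITGAV, the alpha subunit that pairs with ITGB5, had 182 and 128 normalized CPM in control and 214 and 147 in SIRT6-inhibited libraries, which overlapped, and a log2 fold change of 0.22 (edgeR adjusted p = 0.969). ITGB3, another listed partner of ITGAV, had 0 counts in all libraries.

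Of the 6 names for cortical granule contents and zona cleavage 3 were tested here, with 0 past adjustment, against 0 of all 2387 genes tested. HEXA and PLAT passed the filter on low counts through the control libraries alone, so their tests could only point downward and are not used here. HEXA, which encodes a subunit of a lysosomal enzyme, had 36 and 15 counts in control libraries and 0 in both SIRT6-inhibited libraries. CALR, the calcium-binding chaperone calreticulin, had 129 and 263 normalized CPM in control and 145 and 99.1 in SIRT6-inhibited libraries, with overlap and a log2 fold change of -0.68 (edgeR adjusted p = 0.684). CALR was at -0.0828 without control library 2 and -1.12 without control library 1. PLAT, tissue plasminogen activator, had 18 and 19 counts in control and 0 in both SIRT6-inhibited libraries.

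Genes for cortical granule exocytosis numbered 8 of 23 in the table and all 8 were tested, 4 lower and 4 higher, with a median log2 fold change of -0.01 and 0 past adjustment. The median was -0.207 without control library 1, 0.147 without control library 2 and 0.195 with limma-voom. SNAP23, a membrane fusion protein of the SNARE family, had 239 and 271 normalized CPM in control libraries and 132 and 137 in SIRT6-inhibited libraries. The replicates lay close together and the groups did not overlap. Its log2 fold change was -0.92 (edgeR adjusted p = 0.460, with 0.21 as standard error), and it alone of the 8 had an unadjusted p-value under 0.05, against 9.05% of all tested genes. With each library left out in turn it stayed between -1.02 and -0.828 and under that unadjusted threshold. With no filter on low counts it passed adjustment (edgeR adjusted p = 0.0313) at the same -0.92, with 0.258 as standard error. NSF, the ATPase that takes SNARE complexes apart, had 269 and 188 normalized CPM in control libraries against 189.5 and 278 with the inhibitor, which overlapped (log2 fold change 0.03, edgeR adjusted p = 0.992). RAB11A, a GTPase of recycling vesicles, had 767 and 798 normalized CPM in control and 875 and 928 in SIRT6-inhibited libraries, with both of the latter higher (log2 fold change 0.20, edgeR adjusted p = 0.718).

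The list of transcription factors behind zona genes held 10 names, of which the table lists 2. NOBOX and LHX8 are oocyte homeobox factors of the growing follicle. NOBOX had 39.9 and 90.6 normalized CPM in control and 59.7 and 29.6 in SIRT6-inhibited libraries, which overlapped (log2 fold change -0.55, edgeR adjusted p = 0.939). Its order over the libraries was that of ZP3, highest in control library 2 and lowest in SIRT6-inhibited library 2. LHX8 had 123 and 166 normalized CPM in control and 117 and 77.3 in SIRT6-inhibited libraries, with no overlap (log2 fold change -0.58, edgeR adjusted p = 0.652). LHX8 was at -0.312 without SIRT6-inhibited library 2, -0.353 without control library 2 and -0.907 without SIRT6-inhibited library 1, and NOBOX was at 0.153 without control library 2. Without SIRT6-inhibited library 1 NOBOX was at -1.14. In the reported fit neither factor was under 0.05 before adjustment by edgeR, where 9.05% of all tested genes were. FIGLA, the factor best known for driving zona genes, was not analysed here.

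Zona proteins are secreted glycoproteins, and 12 of 22 listed genes of secretion and glycoprotein processing were tested. Of these, 7 were lower and 5 higher with a median log2 fold change of -0.45, 0 passed adjustment, and 3 had an unadjusted p-value under 0.05, all of them lower; over all tested genes 5.99% were lower with such a p-value. The median was -0.214 without SIRT6-inhibited library 2 and -0.255 without control library 2. The count was 1 without control library 2 and 5 without control library 1, without SIRT6-inhibited library 1 or with no filter on low counts, each time 4 lower genes and the higher SEC61A1. PDIA3, which forms disulfide bonds in glycoproteins, had 262 and 437 normalized CPM in control libraries and 172 and 116 in SIRT6-inhibited libraries. Its groups did not overlap, and its log2 fold change was -1.28 (edgeR adjusted p = 0.460, with 0.32 as standard error). It passed adjustment with DESeq2 (DESeq2 adjusted p = 0.0236). With no filter on low counts it passed at the same -1.28 (edgeR adjusted p = 3.23e-05), with 0.239 as standard error. Without SIRT6-inhibited library 1 it was at -1.6. CANX, the lectin chaperone calnexin that works with PDIA3, had 185 and 267 normalized CPM in control against 139.5 and 139 with the inhibitor. Both SIRT6-inhibited libraries were lower, by a log2 fold change of -0.70 ± 0.25 (± its standard error; edgeR adjusted p = 0.505). Without control library 2 CANX was at -0.413 and its unadjusted p-value above 0.05. RPN2, a subunit of the N-glycan transferase, had 81 and 229 counts in control libraries and 0 and 26 with the inhibitor, and a log2 fold change of -3.86 ± 1.58 (± its standard error; edgeR adjusted p = 0.544). RPN2 was at -2.67 without control library 2. Its unadjusted p-value was above 0.05 by limma-voom, at -4.67, and with a block for crossed replicate numbers, at -4.34. With no filter on low counts RPN2 passed adjustment (edgeR adjusted p = 0.0248) at the same -3.86, with 1.05 as standard error. It was at -2.91 without SIRT6-inhibited library 1, and without SIRT6-inhibited library 2 the remaining library had 0 counts and the fit gives no usable value.

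Some genes of the secretory list were not lower in this fit. SEC61A1, the channel through which new zona proteins enter the endoplasmic reticulum, had 641 and 501 normalized CPM in control and 696 and 779 in SIRT6-inhibited libraries, both of the latter higher. Its log2 fold change was 0.37 (edgeR adjusted p = 0.570, with 0.16 as standard error), and it was 0.198 without control library 2 and 0.549 without control library 1. Its unadjusted p-value was under 0.05 by DESeq2, by limma-voom, with no filter on low counts and with at least 10 counts asked of each library. SEC61B, a small subunit of the same channel, had 430.1 and 338 normalized CPM in control libraries against 331.5 and 439 with the inhibitor, which overlapped (log2 fold change 0.00, edgeR adjusted p = 0.996).

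Among the oocyte markers, 5 were lower and 6 higher with a median log2 fold change of 0.01, 0 passed adjustment, and an unadjusted p-value under 0.05 was found for 1 lower and 1 higher gene, against 5.99% lower and 3.06% higher over all tested genes. Without SIRT6-inhibited library 1 the median was -0.559. GDF9 was the lower gene, with 1323.1 and 2987.6 normalized CPM in control and 978 and 393 in SIRT6-inhibited libraries (log2 fold change -1.65, edgeR adjusted p = 0.469). Its order over the SIRT6-inhibited and over the control libraries was that of ZP3, but its groups did not overlap. Without control library 2 GDF9 was at -0.954, and without SIRT6-inhibited library 1 or 2 it was at -2.46 and -1.14. GDF9 passed adjustment with no filter on low counts, at -1.66 (edgeR adjusted p = 6.71e-26). Its standard error was 0.147 there, against 0.50 in the reported fit at nearly the same size. By DESeq2 it was not under 0.05 even before adjustment (DESeq2 adjusted p = 0.510). WEE2 was the higher gene with a log2 fold change of 0.23 (edgeR adjusted p = 0.487). It passed with DESeq2 (DESeq2 adjusted p = 0.0200), and without SIRT6-inhibited library 1 or 2 its unadjusted p-value was above 0.05. H1FOO, the linker histone of the oocyte, had 24986 and 21292 normalized CPM in control and 22627 and 23927 in SIRT6-inhibited libraries, which overlapped (log2 fold change 0.01, edgeR adjusted p = 0.994).

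Of the 7 tested cumulus and granulosa cell markers, 6 were lower and 1 higher, where 52.8% of all tested genes were lower. Their median log2 fold change was -0.82, the same with PTGS2, at 0 in both SIRT6-inhibited libraries, set to its bound. PTGS2, which is among the 6 lower genes, passed the filter through the control libraries alone. Its direction was thus set by the filter and is not used as a sign of a lower level. The median was -1.5 without SIRT6-inhibited library 2, -0.538 without SIRT6-inhibited library 1 and -1.76 with limma-voom. By edgeR 0 of them were under 0.05 before adjustment (9.05% of all tested genes), against 1 by limma-voom, and 1 by edgeR without SIRT6-inhibited library 1 or without SIRT6-inhibited library 2. VCAN, a matrix proteoglycan, had 82.7 and 137 normalized CPM in control libraries against 38.8 and 142 with the inhibitor, which overlapped. INHBA, the activin beta A subunit, had 34.8 and 26.7 normalized CPM in control and 19.3 and 21.2 in SIRT6-inhibited libraries, which did not overlap (log2 fold change -0.60, edgeR adjusted p = 0.955).

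**Figure D5:**
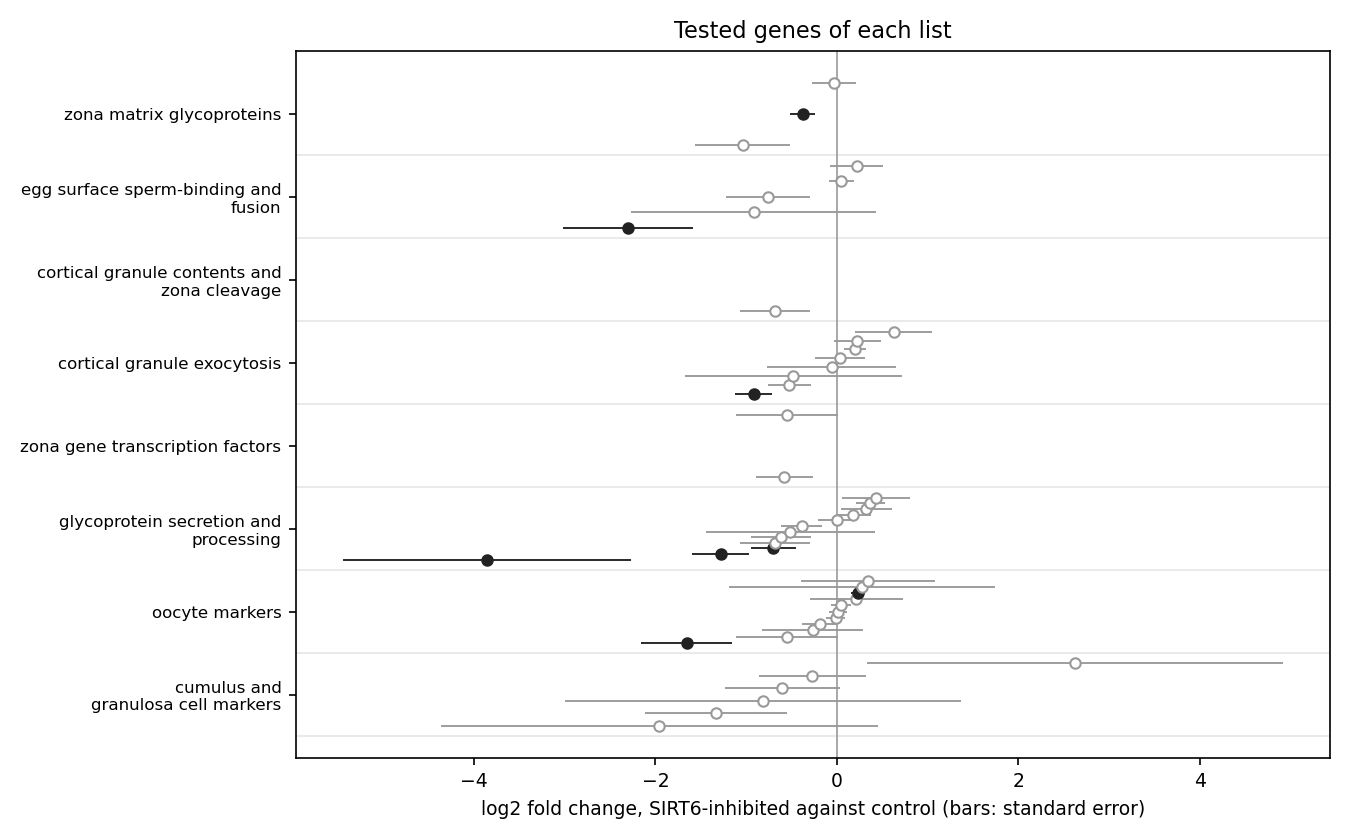
Log2 fold change (SIRT6-inhibited against control) of the tested genes of 8 lists, with standard errors as bars and filled points where the unadjusted p-value was under 0.05; genes with 0 counts in both SIRT6-inhibited libraries (HEXA, PLAT and PTGS2) are left out because their fitted value is no bound. Filled points lie below 0 except WEE2 among the oocyte markers, and 0 genes passed adjustment.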

How the data were processed

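The deposited table holds unnormalized counts of reads by gene symbol for 4 libraries. The submitters' processing notes name TopHat2 2.0.13, Cufflinks 2.2.1, Cuffnorm and Cuffdiff and the builds susScr11 (Sscrofa11.1) and the mouse build mm10, with no role for each, and the counting tool, annotation and strand setting are not given in the sources used here. The labels name amplification by Smart-seq2, while the methods of the study describe column extraction, random-primed libraries and 150-bp paired-end reads, so counts may hold amplified copies and intervals cover counting error only. Of the 4381 symbols, 4299 (98.1%) matched a porcine RefSeq symbol or synonym. Coordinates are those of RefSeq on Sscrofa11.1.

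Genes were kept by edgeR's filterByExpr (minimum count 10, minimum total 15), scaled by TMM and compared across the whole table with edgeR's quasi-likelihood test (R 4.3.3, edgeR 4.0.16, limma 3.58.1, DESeq2 1.42.0) with Benjamini-Hochberg adjustment over 2387 genes. A standard error is the log2 fold change divided by the square root of the F statistic. The fit was tried on simulated counts. The study's methods name no test for sequencing counts specifically.

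The members, lists and ratio pairs were chosen with earlier results of these data known. Genes named in the text are the members, list genes with an unadjusted p-value under 0.05, the 2 genes of each list with the highest mean normalized CPM, and the 5 genes closest in pattern to ZP2 and to ZP3 (log2 CPM with a prior count of 2). Other genes named (BMP15, PLAT, PTGS2, ITGB3, ZPBP, ENG, OIT3 and markers at 0 counts) were picked after their values were seen. Alternatives were RLE factors, library totals, no filter, a minimum of 10 counts in each library, omission of the 10 genes with most counts, a block for replicate number, DESeq2, limma-voom and each library left out in turn. A block with crossed numbers was added after seeing the data.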

Additional observations from a re-analysis of the deposited data

How the results depend on the processing

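ZP2 and ZP3 kept their direction in all 13 alternatives, and ZP2 did not pass adjustment in any of them (edgeR, limma or DESeq2 adjusted p between 0.111 and 0.950). ZP3 passed without a filter on low counts at -1.04 (edgeR adjusted p = 5.46e-07), with 0.169 as standard error against 0.526 in the reported fit. Over the libraries left out ZP3 ranged from -1.92 to -0.30. ZP4 changed sign with the replicate block (0.00778), limma-voom (0.0156) and crossed numbers (0.00806), and ranged from -0.353 to 0.377 with libraries left out. The unadjusted p-value of ZP3 was under 0.05 with the replicate block (-1.07) and with crossed numbers (-1.08), but not with DESeq2. Same-numbered libraries share only a number: their deviations had a correlation of -0.117. With the replicate block 6 genes passed adjustment and 176 had an unadjusted p-value under 0.05, with crossed numbers 2 and 241. GDF9 was among those passing, at -1.68 with the replicate block (edgeR adjusted p = 0.00398) and -1.68 with crossed numbers (edgeR adjusted p = 0.00393), and the cumulus and granulosa median was -1.51 with each. Adjusted counts were 43 without a filter, 2 with at least 10 counts in every library, 37 with DESeq2, and 0 to 77 with libraries left out, where unadjusted counts ran from 111 to 302. The cause was not tested. Of 34 other named genes, 21 kept their direction in each alternative that tested them. With library totals only, CD81 was -0.00802, NSF -0.0258, SEC61B -0.0541 and H1FOO -0.048. SEC61B was -0.00189 without the 10 most abundant genes, -0.000319 with the block and -0.000359 with crossed numbers, and PECAM1 was 0.0413 with limma-voom. With libraries left out, ranges that crossed 0 were -0.0348 to 0.124 for CD81, -0.0775 to 0.49 for ITGAV, -0.275 to 0.304 for NSF, -1.14 to 0.153 for NOBOX, -0.215 to 0.186 for SEC61B, -0.448 to 0.942 for TGFBR3, -0.422 to 0.0152 for ZPBP2, -0.107 to 0.12 for H1FOO, -1.5 to 0.373 for VCAN, -0.145 to 0.449 for COL1A2, -0.538 to 0.533 for PECAM1, -1.56 to 0.322 for CTSB and -1.56 to 0.396 for PRPF19. The ZP4 to BMP15 difference ran from -0.27 to 0.176.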

Other observations

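Genes of the sperm side of fertilization serve as a view of what an oocyte library should lack. Of 20 names the table lists 12, and 9 of them had 0 counts in all libraries, among them PRM1, the sperm protamine, ACR, the acrosomal protease acrosin, and SPAM1, the sperm hyaluronidase. SPACA3 had 8 counts in SIRT6-inhibited library 1 alone and ZPBP had 2 in control library 2 alone. ZPBP2, named for a zona-binding protein of the acrosome, was the exception, with 255 and 264 counts in control libraries and 181 and 266 in SIRT6-inhibited libraries. At 55.1, 74.3, 56.2 and 55.4 normalized CPM its groups overlapped (log2 fold change -0.21, edgeR adjusted p = 0.980). The source of the ZPBP2 reads was not tested.

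Of 11 other genes for proteins with a ZP domain, the fold that lets zona proteins form filaments, the table lists 4 and 1 was tested. TGFBR3, a co-receptor of the TGF-beta family, had 33 and 17 counts in control and 37 and 21 in SIRT6-inhibited libraries (log2 fold change 0.41, edgeR adjusted p = 0.992). DMBT1 had 17 counts in control library 1 and 0 in the others, and ENG and OIT3 had 0 throughout.

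The theca, stroma and blood list held 2 tested genes, both low. COL1A2, a collagen chain, had a log2 fold change of 0.13 and PECAM1, an endothelial adhesion protein, one of -0.09, with overlapping groups for each (edgeR adjusted p = 0.992 for both).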
